A study of Homo sapiens with 6 samples.

Results

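Imprinted genes were examined in H1 hESCs that had been edited at MSX2 and cloned. The genes were a set list of 35 symbols from the well-known human imprinted clusters, and each was read from the FPKM table by its symbol, using the row with the highest mean where there were several. Of the 35, 34 had a row, among 58364 rows with values in all, and 23 averaged 0.5 FPKM or more across the 6 libraries and entered the tests. MESTIT1, an antisense RNA at MEST, was matched to no row and was not analysed here. HYMAI had 2 rows, of which the other was at 0. By textbook assignment 20 of the 35 are transcribed from the paternal chromosome, 7 from the maternal one, and 8 are imprinted only in some tissues or isoforms.

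An imprinted gene is transcribed from the copy inherited from one parent, because DNA methylation laid down in sperm or egg marks an imprinting control region near it. The mark has to be copied at each cell division, and in cultured pluripotent cells it can be lost or gained, after which both copies or neither are transcribed. A clone grows from a single cell, so that a mark altered in that cell is carried by the whole line. A change of that kind can show as a gene that is on in one clone and off in another, and this was the question put to the libraries. FPKM values add up both copies of a gene and hold no information on alleles.

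The 6 libraries were RNA-seq of H1-derived cells at day 8 of hematopoietic differentiation. H1 is an established human embryonic stem cell line. There were 2 libraries of wild type (WT) cells and 4 labelled MSX2-knockout, which the study writes MSX2-/-, with 2 from each of 2 lines called MSX2-/- 1# and MSX2-/- 2#. Both lines were made with a lentiviral Cas9 vector and guide RNAs to the second exon of MSX2, selected with puromycin and grown from single cells, so that each line is 1 clone. Cloning of the WT cells is not described in the sources used here. The sample labels number the clones 7 and 10, and nothing says which is 1# and which is 2#, so the clone names of the table are used. The labels give CD31+ cells for the MSX2-/- libraries only, whereas the study describes CD31+ cells of both genotypes. The growth protocol also speaks of HAND1 overexpression, which the study does not mention for these cells. The replicate numbers 1 and 2 go with a set letter, F or S, in the labels. Nothing says that replicates were separate cultures, so the p-values measure the spread between these libraries, which may be technical.

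MSX2 itself stood at 3.64 and 1.44 FPKM in WT, 18.0 and 5.62 in 1#, and 31.8 and 6.69 in 2#. The targeted gene was therefore higher in the edited libraries and its level does not check the labels, since an edit within an exon need not lower the RNA. The libraries were of like size, with 13366 to 14222 genes at 1 FPKM or more and a relative depth of 1.0 to 1.19 against WT replicate 1. The number of reads is unknown, so no interval or detection floor that needs it is given. Endothelial markers were high in every library, with PECAM1, which encodes CD31, at 186 to 258 FPKM. The summed level of the 12 mesenchymal markers was 295 and 346 FPKM in WT and 510 to 597 in the MSX2-/- libraries, that of the 12 blood markers 113 and 146 against 251 to 342, and that of the 12 endothelial markers 3406 and 4101 against 2230 to 3440. Among the 8 trophoblast markers, XAGE2 was at 0 in all libraries, and the sum was 49.7 to 87.0 FPKM. HAND1, one of them and also a mesoderm factor, was 2.32 and 1.14 FPKM in WT, 14.1 and 9.61 in 1#, and 22.5 and 10.5 in 2#, and was called higher in MSX2-/- with and without the block. The 12 pluripotency markers summed to 109 and 209 FPKM in WT and 231 to 301 in the MSX2-/- libraries. NANOG was at 0.373 FPKM or less and SOX2 at 0.128 FPKM or less, but other markers of this list were well expressed. LIN28A was 34.0 and 50.6 FPKM in WT and 48.5 to 66.1 in MSX2-/-, and PODXL 43.6 and 134 against 140 to 205. Of the 8 tested, these 2 were called higher in MSX2-/- with the block, beside 6.11% of all genes. DPPA4 was 22.6 to 31.2 FPKM. In such bulk samples fewer cells of a type and less RNA per cell cannot be told apart.

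Windows of 250 bases before the transcription start are shown for 4 starts, chosen after the values had been seen. H19 is the gene that differed most between the clones, MEG3 lies at a locus known for silencing in cultured pluripotent cells, and PLAGL1, which shares the start shown with HYMAI, and SNRPN, shown at an internal start, were on in every library. Sequences are those of RefSeq on GRCh38.p14, which held windows for 23 of the 35 genes. They lie at chr11:2001267-2001516 (minus strand) for H19, chr14:100825858-100826107 (plus) for MEG3, chr15:24954737-24954986 (plus) for SNRPN and chr6:144008260-144008509 (minus) for PLAGL1 and HYMAI. Capitals mark TGCCGC or its reverse complement GCGGCA, the hexamer that the imprint-protecting protein ZFP57 is known to bind when methylated. All read 5′ to 3′ on the strand of the gene.
H19: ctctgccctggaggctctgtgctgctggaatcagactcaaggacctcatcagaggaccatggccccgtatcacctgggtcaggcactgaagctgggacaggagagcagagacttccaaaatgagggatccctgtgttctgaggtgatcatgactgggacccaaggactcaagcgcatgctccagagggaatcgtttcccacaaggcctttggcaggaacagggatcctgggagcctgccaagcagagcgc
MEG3: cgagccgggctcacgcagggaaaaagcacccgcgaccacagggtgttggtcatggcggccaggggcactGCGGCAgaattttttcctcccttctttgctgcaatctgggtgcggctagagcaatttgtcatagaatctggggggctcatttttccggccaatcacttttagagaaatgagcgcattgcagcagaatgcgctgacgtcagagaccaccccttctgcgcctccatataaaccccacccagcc
SNRPN: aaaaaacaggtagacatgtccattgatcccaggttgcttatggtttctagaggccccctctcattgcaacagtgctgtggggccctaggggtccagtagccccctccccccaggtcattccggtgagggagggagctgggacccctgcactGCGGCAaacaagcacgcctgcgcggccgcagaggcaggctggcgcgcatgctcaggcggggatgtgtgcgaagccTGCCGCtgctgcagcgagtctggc
PLAGL1 and HYMAI: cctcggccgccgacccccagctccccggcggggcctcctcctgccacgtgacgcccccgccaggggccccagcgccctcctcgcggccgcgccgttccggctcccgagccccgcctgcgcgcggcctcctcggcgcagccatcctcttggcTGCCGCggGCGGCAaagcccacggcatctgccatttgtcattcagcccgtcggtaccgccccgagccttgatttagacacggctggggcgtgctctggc
The H19 window holds 4 CpG dinucleotides and no hexamer, the MEG3 window 13 and 1, the SNRPN window 12 and 2, and the window of PLAGL1 and HYMAI 32 and 2. The median over the 35116 windows of that length was 11 CpG. The hexamer, searched on both strands, was in 12.7% of all windows and in 16 of the 58 windows of these genes (27.6%), which belong to 12 genes and in part overlap each other. A match of letters is a description and does not show a binding site.

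No imprinted gene was on in one group and off in another. On was taken as at least 1 FPKM in both libraries of a group, and off as at most 0.1 FPKM in both. The rule was met by 0 of the 34 genes in the pairs WT and 1#, WT and 2#, and 1# and 2#, while 65 of the 58364 rows met it in some pair, a background of 0.111%. The count stayed at 0 with on set at 0.5 FPKM, with off set at 0.3 FPKM, with all rows of a symbol summed, and with the libraries rescaled. A count of 0 among 34 genes is near that background. The 8 genes below 1 FPKM throughout, 3 at or below 0.1 FPKM and 2 at 0 could not meet the rule at 1 FPKM. A gene that goes from 1 transcribed copy to both stays on, so the rule cannot show such a change.

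Levels of these genes ranged widely. In all 6 libraries 19 were at 1 FPKM or more, namely DLK1, PEG10, SGCE, MEST, SNRPN, NDN, UBE3A, KCNQ1, CDKN1C, SLC22A18, PLAGL1, NNAT, BLCAP, L3MBTL1, GNAS, GRB10, NAP1L5, INPP5F and ZNF331. GNAS, the stimulatory G protein subunit, had the highest FPKM of the imprinted genes listed, 865 to 1102. A further 8 stayed below 1 FPKM but exceeded 0.1 in some library (MEG3, MEG8, RTL1, PPP1R9A, MAGEL2, HYMAI, DIRAS3 and ZDBF2). PEG3, MKRN3 and KCNQ1OT1 stayed at or below 0.1 FPKM, and ZIM2 and NLRP2 were listed at 0 throughout. Only H19 and PHLDA2 had libraries on both sides of 1 FPKM. By copy, 10 of the 19 paternally expressed genes with a row and 2 of the 7 maternally expressed ones were at 1 FPKM or more in every library.

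**Figure D1:**
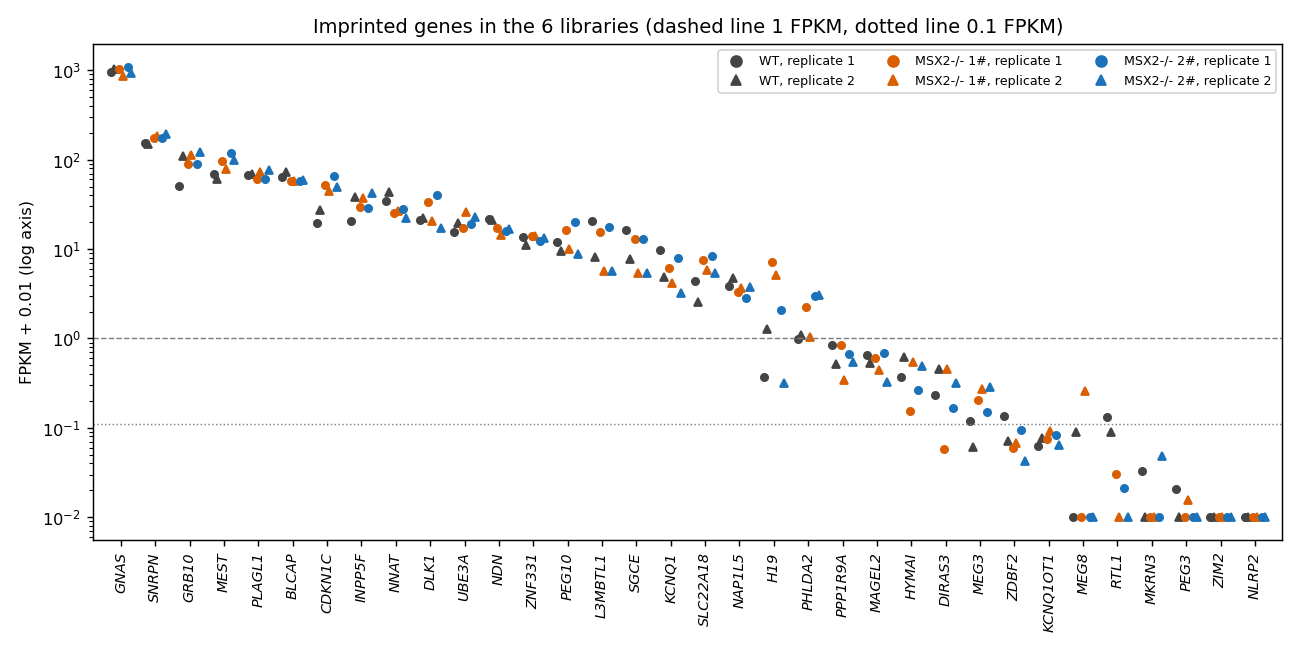
FPKM + 0.01 on a log axis for the 34 imprinted genes with a row, ordered by mean; each point is 1 library, coloured by WT, MSX2-/- 1# and MSX2-/- 2#, with circles for replicate 1 and triangles for replicate 2. No gene has 1 group above the dashed line at 1 FPKM and another below the dotted line at 0.1 FPKM, and H19 and PHLDA2 are the genes with points on both sides of the dashed line.

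H19 showed the largest difference between the clones. H19 is a long noncoding RNA made from the maternal chromosome at the locus where IGF2, a fetal growth factor, is made from the paternal one. Its level was 0.364 and 1.27 FPKM in WT, 7.22 and 5.18 in 1#, and 2.04 and 0.311 in 2#. Both libraries of 1# were above all others, while the 2# libraries lay around the WT ones. The log2 fold change of FPKM + 1, the scale of all fold changes here, was -1.84 ± 0.49 (SE) for 2# against 1#, with an adjusted p of 1.0, and ± 0.45 with an adjusted p of 0.826 when the replicate number was a term of the fit (the replicate block). Its 95% interval with the block ran from -2.95 to -0.72. Against WT, the change was 2.02 ± 0.49 in 1# (adjusted p = 0.335, or 0.0828 with the block) and 0.18 ± 0.49 in 2# (adjusted p = 1.0). The blocked p for 1# was 0.0497 with WT replicate 2 left out and 0.417 at the highest, and the change in 2# turned to between -0.59 and -0.18 with WT replicate 1 or 2# replicate 1 left out.

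IGF2, the partner of H19, did not divide the clones in this way. It stood at 44.4 and 58.4 FPKM in WT, 135 and 99.1 in 1#, and 145 and 106 in 2#. The log2 ratio of H19 + 1 to IGF2 + 1 was -5.06 and -4.71 in WT, -4.04 and -4.02 in 1#, and -5.59 and -6.35 in 2#, so that the clones did not overlap. WT lay between them on this scale, but with 0.1 added in place of 1 it overlapped 2#, at -6.58 and -5.42 against -6.08 and -8.01. Among 7 locus pairs formed in this way, that was the 1 pair in which the libraries of the clones separated. It holds H19, the gene already seen to differ most between the clones, so this is no separate result. In the pairs with MEG3, KCNQ1OT1 or HYMAI, that partner stayed below 1 FPKM and the ratio follows mainly the other gene. PEG3 and ZIM2 were both at or near 0. Those pairs are therefore a poor measure of how often clones separate. With 2 libraries against 2, an exact permutation test cannot reach 0.05, and none was made.

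Some liver and endoderm genes had a like order. Of the 10 endoderm markers, 4 had both 1# libraries highest (ALB, FGB, RBP4 and TTR), and 7 had 2# replicate 2 lowest. The share of all genes with either order was not counted, so how common these orders are is not known. ALB, which encodes albumin, stood at 20.7 and 44.8 FPKM in WT, 122 and 125 in 1#, and 15.3 in 2# replicate 1, and was listed at 0 in 2# replicate 2. FGB, a fibrinogen chain, stood at 3.17 and 6.53, 17.5 and 16.7, and 2.52 and 0.0454 FPKM in the same order. As with H19, both 1# libraries were highest and 2# replicate 2 was lowest. The 10 endoderm markers summed to 384 and 367 FPKM in WT, 605 and 748 in 1#, and 471 and 333 in 2#. Without SOX17, which endothelium also expresses, the other 9 summed to 219 and 126 FPKM in WT, 404 and 394 in 1#, and 234 and 14.7 in 2#. The other 6 did not have 1# highest: AFP, FOXA2 and HNF4A were highest in 2# replicate 1, APOA2 was highest in WT replicate 1, and for APOA1 and SOX17 a 2# library exceeded one of 1#. The test of 2# against 1# called 0 of the 10, with 3 at an unadjusted p under 0.05 without the block and 4 with it. Over all 15895 genes tested, 225 and 530 were at that unadjusted p. None of the 10 was at 0 in all libraries. H19 is known to be abundant in fetal liver and other endoderm, and the part of such cells in its difference was not tested.

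**Figure D2:**
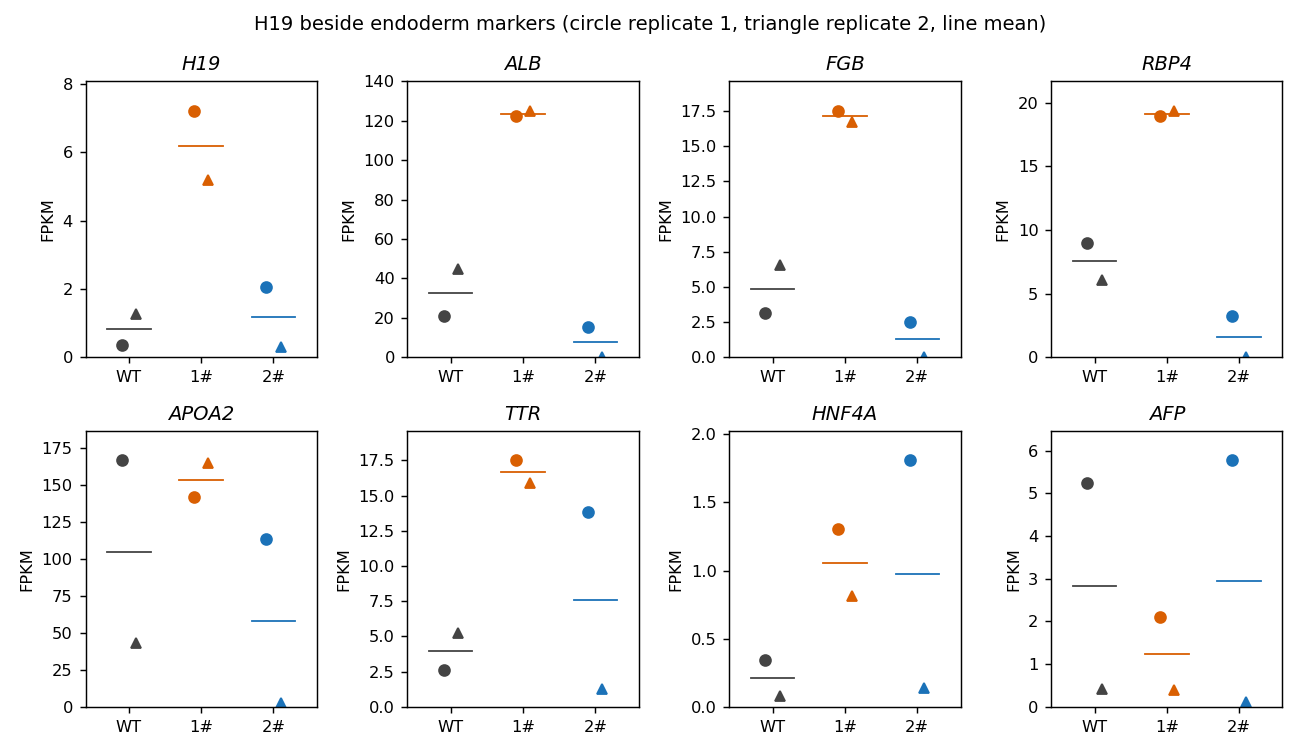
FPKM of H19 and 7 endoderm markers by group (WT, 1#, 2#) on linear axes from 0; each point is 1 library, circles for replicate 1 and triangles for replicate 2, and the line is the mean. H19, ALB, FGB and RBP4 are highest in both 1# libraries, whereas HNF4A and AFP are highest in 2# replicate 1.

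No other difference between the clones was of that size. The limma test of 2# against 1# called 0 of the 23 genes, and 0 with the block, beside a background of 0.0% of 15895 genes in the fit without the block and 0.0% with it. At an unadjusted p under 0.05, it held 1 of the 23 and 225 of all genes without the block (46 higher and 179 lower), and 3 of the 23 and 530 of all with it. The median log2 difference was 0.02 over the 23 genes and 0.02 over all genes tested. With the block, the 95% interval of the log2 difference stayed within -1 to 1 for all but 2 of the 23, H19 and PHLDA2. Without the block the intervals were wider and reached past these bounds for 8. The bounds are a 2-fold change of FPKM + 1, which for genes of low level is a larger change of FPKM. PPP1R9A and MAGEL2 were below 1 FPKM in all libraries, so even full loss would change their estimate by less than 1.

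PHLDA2, a growth-restraining gene of placenta, stood at 0.974 and 1.09 FPKM in WT, 2.22 and 1.03 in 1#, and 2.98 and 3.02 in 2#. The 2# libraries were above the 1# libraries, of which one was at the WT level. The log2 difference between the clones was 0.64 ± 0.29 (adjusted p = 1.0). MEST, a gene of mesoderm, followed with 0.31 ± 0.18 and CDKN1C with 0.23 ± 0.24. ZNF331, a zinc finger gene, was lower in both 2# libraries than in both of 1#, at 12.3 and 13.4 against 13.9 and 13.9 FPKM, beside 13.6 and 11.2 in WT. MEG8, a host of small nucleolar RNAs, was 0.246 FPKM in 1# replicate 2, 0.0794 in WT replicate 2 and 0 in the other libraries. In all, 4 of the 23 genes (17.4%) had the 2# libraries above or below both 1# libraries, MEST and PHLDA2 above and H19 and ZNF331 below, beside a background of 14.8% of all genes.

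**Figure D3:**
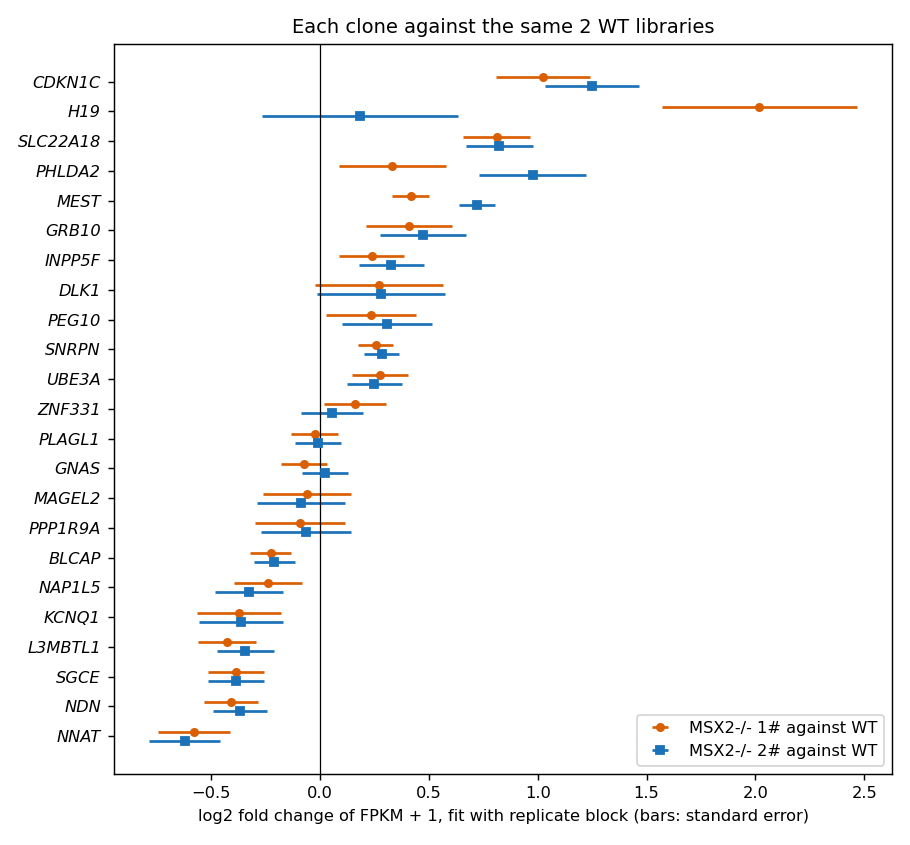
Log2 fold change of FPKM + 1 against the same 2 WT libraries for MSX2-/- 1# (circles) and MSX2-/- 2# (squares), in the fit with the replicate block; bars are standard errors and the 23 tested genes are ordered by the sum of both changes. The clones lie side by side for most genes, and the widest gaps are those of H19 (2.02 and 0.18) and PHLDA2 (0.33 and 0.98).

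Each clone was then read against WT, which both comparisons share. In 1#, 0 of the 23 genes were called without the block, beside a background of 0.00629%, and 0 with it, beside 3.46%; at an unadjusted p under 0.05 there were 3 and 9 of the 23, and 1172 and 3254 of all genes. In 2#, 0 were called without the block, beside a background of 0.00629%, and 2 higher with it, CDKN1C and MEST, beside 2.59%; at an unadjusted p under 0.05 there were 5 and 9 of the 23, and 1181 and 3214 of all genes. CDKN1C changed by 1.25 ± 0.22 (adjusted p = 0.0448) and MEST by 0.72 ± 0.08 (adjusted p = 0.0192) in the blocked fit. The same changes in 1# were 1.02 ± 0.22 (adjusted p = 0.0736) and 0.42 ± 0.08 (adjusted p = 0.0656). With 1 library left out at a time, the blocked CDKN1C call in 2# held only without WT replicate 2, and that of MEST in no case.

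Over both clones together, 0 of the 23 genes were called without the block, beside a background of 1.28%, and 6 had an unadjusted p under 0.05, as did 1873 of all genes. With the block, 4 were higher, beside a background of 6.11%, and 1 was lower, beside 3.74%. Neither fit held a term for the clone, and both took the 4 libraries of both clones as separate units. The p-values therefore do not treat the clone as the unit. The median log2 change was 0.11 over the 23 genes and 0.01 over all genes. The 4 MSX2-/- libraries were all above or all below both WT libraries for 8 of the 23 (34.8%), beside a background of 21.3%. MEST, SNRPN, CDKN1C and SLC22A18 were above, and NDN, NNAT, BLCAP and NAP1L5 below.

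CDKN1C had the largest of these called changes. It encodes the cyclin-dependent kinase inhibitor p57 and is made from the maternal chromosome in the centromeric domain of the chromosome 11 cluster. Its level was 19.6 and 27.4 FPKM in WT, 52.2 and 44.5 in 1#, and 65.2 and 49.0 in 2#, with no overlap between the genotypes. The log2 change was 1.14 ± 0.20 (adjusted p = 0.0596), or ± 0.19 with the block (adjusted p = 0.0182). SLC22A18, a transporter family member of the same domain, stood at 4.38 and 2.52 FPKM in WT, 7.56 and 5.82 in 1#, and 8.38 and 5.32 in 2#. Replicate 2 was the lower one in each group, and each MSX2-/- library exceeded both WT libraries. Its change was 0.82 ± 0.25 (adjusted p = 0.257), or ± 0.11 with the block (adjusted p = 0.00989).

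Of the other listed genes of that domain, KCNQ1 and PHLDA2 did not pass the test between genotypes, and KCNQ1OT1 was too low to be tested. KCNQ1, a potassium channel subunit, stood at 9.64 and 4.84 FPKM in WT, 6.16 and 4.16 in 1#, and 7.98 and 3.18 in 2#, and the groups overlapped. KCNQ1OT1, the paternal antisense RNA inside KCNQ1 that is known to silence this domain in cis, was 0.0521 and 0.0666 FPKM in WT and 0.0534 to 0.0820 in the MSX2-/- libraries. Since the kit did not mark strand, reads of KCNQ1 and KCNQ1OT1 cannot be told apart where they overlap. The log2 ratio of CDKN1C + 1 to KCNQ1OT1 + 1 was 4.29 and 4.74 in WT and 5.39 to 5.95 in the MSX2-/- libraries. With KCNQ1OT1 so near 0, this ratio follows CDKN1C almost alone, and that the genotypes did not overlap in it is no separate result.

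**Figure D4:**
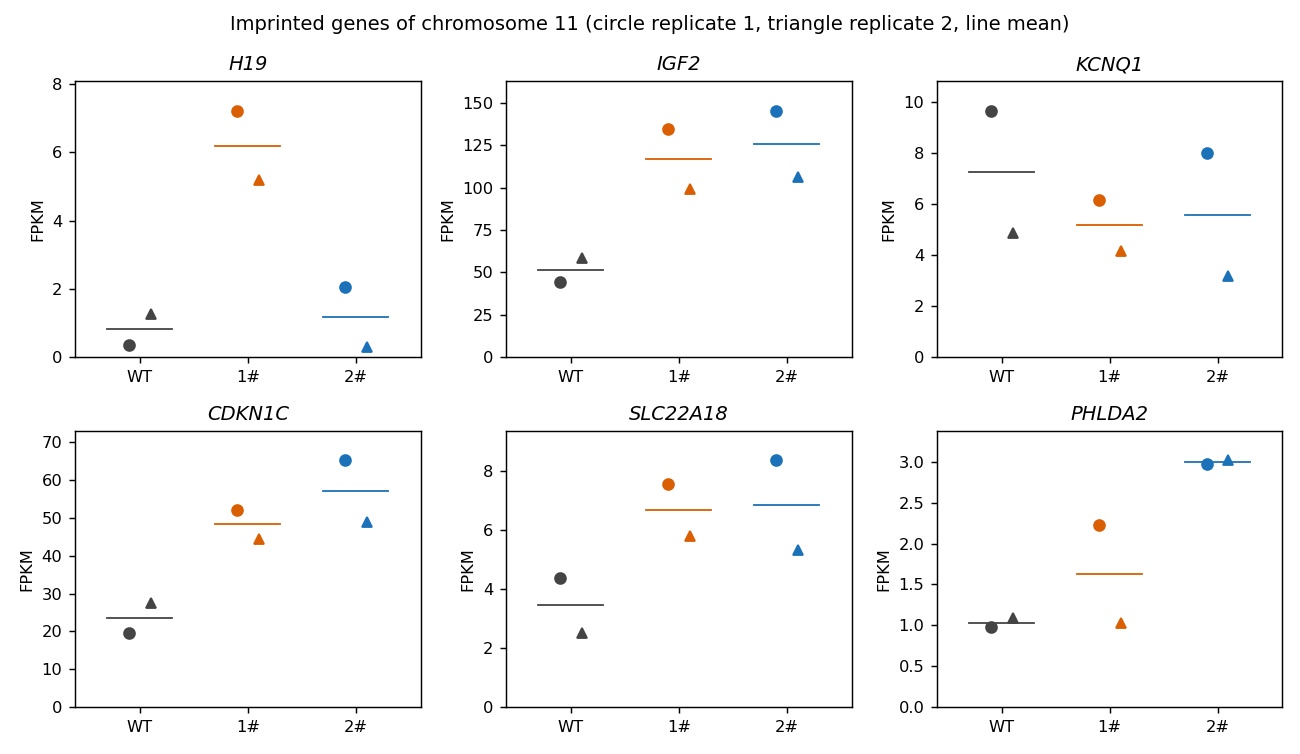
FPKM of 6 genes of the chromosome 11 cluster by group (WT, 1#, 2#) on linear axes from 0; each point is 1 library, circles for replicate 1 and triangles for replicate 2, and the line is the mean. IGF2, CDKN1C and SLC22A18 are higher in all 4 MSX2-/- libraries than in WT, H19 is highest in 1#, PHLDA2 is highest in 2#, and KCNQ1 is lower in replicate 2 of each group.

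On chromosome 7, MEST stood at 69.4 and 61.1 FPKM in WT, 96.5 and 78.8 in 1#, and 118 and 99.0 in 2#. Its order was the same in each replicate number, with WT lowest and 2# highest, and its change over both clones was 0.57 ± 0.17 (adjusted p = 0.234), or ± 0.12 with the block (adjusted p = 0.0390). COPG2 and MESTIT1 overlap MEST on the opposite strand. PEG10 and SGCE, which are transcribed away from each other from adjoining starts on the paternal chromosome, did not pass the test. PEG10, a retrotransposon-derived gene, stood at 12.0 and 9.40 FPKM in WT, 16.2 and 9.91 in 1#, and 20.2 and 8.74 in 2#, and SGCE, epsilon-sarcoglycan, at 16.3 and 7.78, 13.0 and 5.32, and 12.9 and 5.40 FPKM. The log2 ratio of PEG10 + 1 to SGCE + 1 was -0.41 and 0.25 in WT and 0.29 to 0.79 in the MSX2-/- libraries.

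On chromosome 15, SNRPN, a spliceosomal protein gene whose promoter region holds the imprinting centre of the Prader-Willi region, stood at 153 and 148 FPKM in WT, 176 and 184 in 1#, and 176 and 191 in 2#. The change was 0.27 ± 0.09 (adjusted p = 0.282), or ± 0.06 with the block (adjusted p = 0.0442), and the genotypes did not overlap. NDN, which encodes necdin and is also made from the paternal copy, stood lower in the MSX2-/- libraries, with 21.6 and 21.2 FPKM in WT, 17.3 and 14.5 in 1#, and 16.1 and 16.6 in 2#. Its change of -0.39 ± 0.09 in the blocked fit did not pass (adjusted p = 0.0509). The log2 ratio of NDN + 1 to SNRPN + 1 was -2.77 and -2.75 in WT and -3.58 to -3.27 in the MSX2-/- libraries. MAGEL2 stayed at 0.313 to 0.678 FPKM and MKRN3 at 0.0390 or less. UBE3A, the Angelman syndrome ubiquitin ligase that is imprinted in neurons, was 15.4 to 26.2 FPKM. SNURF and SNHG14 share sequence with SNRPN, and how reads were divided among them is not known.

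NNAT, which encodes neuronatin and sits in an intron of BLCAP on chromosome 20, stood at 34.7 and 43.7 FPKM in WT, 25.1 and 26.4 in 1#, and 27.8 and 22.4 in 2#. All MSX2-/- libraries lay below both WT libraries, with a change of -0.60 ± 0.15 (adjusted p = 0.153), or ± 0.13 with the block (adjusted p = 0.0385). BLCAP, its host on the other strand, was 64.4 and 72.2 FPKM in WT and 57.8 to 59.4 in the MSX2-/- libraries, and its change of -0.22 ± 0.07 in the blocked fit had an adjusted p of 0.102.

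The 5 blocked calls over both clones rested on few libraries. With 1 library left out at a time, 1 to 3 genes were called. SLC22A18 kept its call in 5 of 6 cases, losing it without WT replicate 2 (adjusted p = 0.0652), CDKN1C in 3, MEST and NNAT in 1 each, and SNRPN in none. The mesenchymal and blood marker sums given above also differed between the genotypes. The endothelial sums overlapped, though 7 of those 12 markers were called lower in MSX2-/- with the block, beside 3.74% of all genes. COL1A1 was 27.7 and 55.9 FPKM in WT and 193 to 206 in the MSX2-/- libraries. COL1A2, at 144 and 148 against 130 to 156, and COL3A1, at 32.9 and 51.1 against 17.4 to 48.8, did not rise. With the block, 4 of the 10 mesenchymal markers tested were called higher and 0 lower, beside 6.11% and 3.74% of all genes. The part of these marker differences in the changes above was not tested.

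At the DLK1-MEG3 locus of chromosome 14 DLK1, made from the paternal copy, was on in every group, while MEG3 and MEG8, made from the maternal copy, were below 0.3 FPKM in every library. DLK1, a relative of the Notch ligands, stood at 20.9 and 22.5 FPKM in WT, 33.2 and 20.8 in 1#, and 40.7 and 17.1 in 2#. MEG3, a maternal long noncoding RNA, stood at 0.110 and 0.0512 FPKM in WT, 0.196 and 0.262 in 1#, and 0.139 and 0.279 in 2#. The MSX2-/- libraries were all above WT, at a level under the limit of the filter, so that no test was made. RTL1 was 0.122 and 0.0787 FPKM in WT and 0.0207 or less in the MSX2-/- libraries. MEG9, another maternal RNA of the locus and one of the wider list of imprinted genes given last, was higher, with 2.01 and 0.167 FPKM in WT, 0.446 and 0.284 in 1#, and 1.37 and 0.0860 in 2#, and the groups overlapped. The log2 ratio of MEG3 + 1 to DLK1 + 1 lay between -5.20 and -3.83, and the 3 groups overlapped.

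PEG3 and ZIM2, zinc finger genes with shared first exons on chromosome 19, were silent or nearly so in WT as well as in both clones, with PEG3 at 0.0107 FPKM or less. PLAGL1, a zinc finger gene that restrains cell division, was 67.6 and 69.2 FPKM in WT, 61.5 and 73.4 in 1#, and 60.3 and 76.5 in 2#. HYMAI, the noncoding RNA that starts with it, was 0.359 and 0.602, 0.146 and 0.539, and 0.258 and 0.478 FPKM. The groups overlapped for both genes, and the log2 ratio of PLAGL1 + 1 to HYMAI + 1 stayed between 5.45 and 5.77. DIRAS3, a Ras-like GTPase, was 0.0476 to 0.444 FPKM, ZDBF2 0.0328 to 0.125, and PPP1R9A, which encodes neurabin, 0.328 to 0.843. NAP1L5, a nucleosome assembly family gene, was 3.88 and 4.75 FPKM in WT and 2.79 to 3.71 in the MSX2-/- libraries.

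The replicate numbers also differed within every group. In a fit with the 3 groups as terms, replicate 2 was higher than replicate 1 for 3 of the 23 genes, beside a background of 12.5%, and lower for 5, beside 15.5%. The median log2 difference was -0.14 over the 23 and -0.03 over all genes. L3MBTL1, a histone reader of chromosome 20, fell from 20.6 to 8.24 FPKM in WT, from 15.5 to 5.69 in 1# and from 17.6 to 5.65 in 2# (log2 change -1.34 ± 0.11, adjusted p = 0.00414). SGCE fell in the same way, by 1.08 ± 0.11 on the log2 scale (adjusted p = 0.0047). KCNQ1 fell by 0.81 ± 0.16 (adjusted p = 0.0189), PEG10 by 0.70 ± 0.17 (adjusted p = 0.0331) and SLC22A18 by 0.50 ± 0.13 (adjusted p = 0.0365).

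GRB10, an adaptor of growth factor receptors, rose from 50.8 to 110 FPKM in WT, from 88.9 to 112 in 1# and from 90.3 to 121 in 2# (0.61 ± 0.16, adjusted p = 0.0406). INPP5F, an inositol phosphatase, rose from 20.4 to 37.8, from 29.4 to 37.0 and from 29.1 to 42.5 FPKM (0.57 ± 0.12, adjusted p = 0.0239). UBE3A rose from 15.4 to 19.5, from 17.2 to 26.2 and from 18.97 to 22.86 FPKM (0.39 ± 0.10, adjusted p = 0.0443). All 8 went the same way in the 3 groups. L3MBTL1 and SGCE kept the call with each of the 6 libraries left out in turn, GRB10, INPP5F and PEG10 in 2 cases each, and KCNQ1, SLC22A18 and UBE3A in none. For L3MBTL1 and SGCE the gap between replicates was larger than the fitted differences between clones and genotypes, which were 0.43 or less in size.

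**Figure D5:**
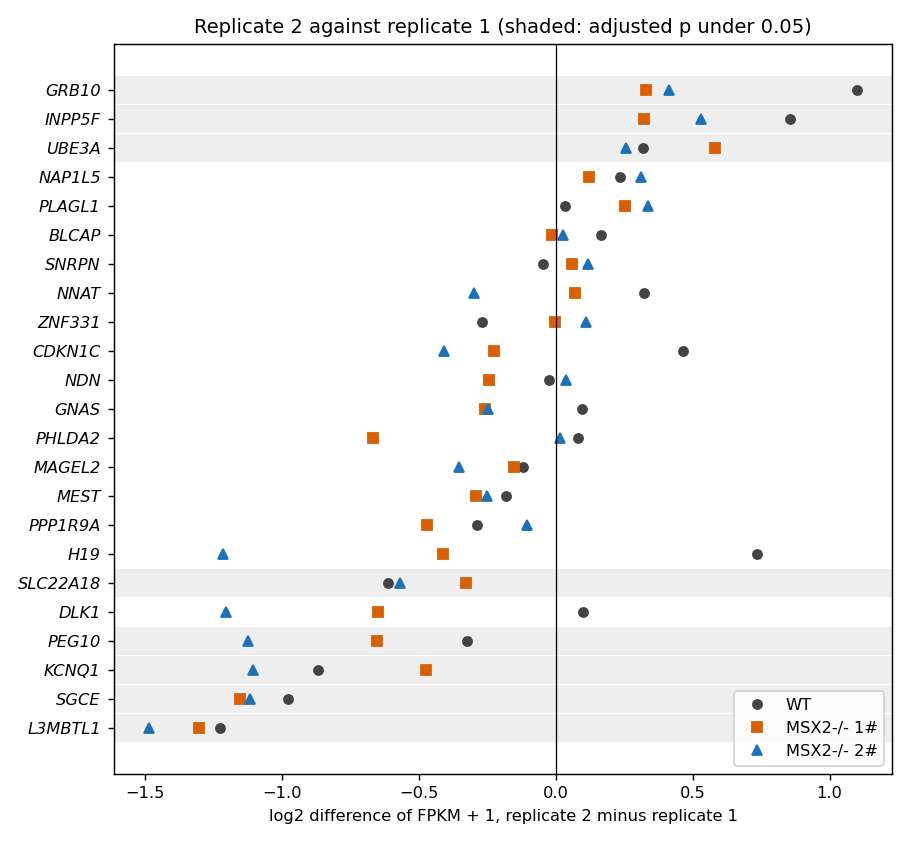
Log2 difference of FPKM + 1, replicate 2 minus replicate 1, within WT (circles), MSX2-/- 1# (squares) and MSX2-/- 2# (triangles) for the 23 tested genes; shading marks the 8 genes with an adjusted p under 0.05 in the fit with the 3 groups. L3MBTL1 lies furthest to the left in all 3 groups, SGCE is next in WT and 1# but not in 2#, and GRB10 and INPP5F lie to the right.

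A longer list of 75 other genes reported as imprinted held 39 with enough expression to test. None of them was on in one group and off in another, and limma called 0 between the clones. At an unadjusted p under 0.05 there were 0, and 2 with the block, beside 225 and 530 of all genes. In MSX2-/- against WT, 2 of the 39 were higher without the block, beside 153 of the 15895 genes, and with it 5 were higher and 2 lower, beside 6.11% and 3.74% of all genes. TSPAN32, a tetraspanin gene of blood cells in the chromosome 11 cluster, was 4.54 and 8.08 FPKM in WT, 16.5 and 19.9 in 1#, and 19.8 and 18.3 in 2# (log2 change 1.46 ± 0.22, adjusted p = 0.0385). IGF2 changed by 1.22 ± 0.20 (adjusted p = 0.0479). Both exceeded WT in all 4 libraries. With the block, TFPI2 (1.45), ANO1 (0.66) and NTM (0.95) were also higher, and LPAR6 (-0.46) and DIO3 (-0.86) lower. The libraries of the genotypes overlapped for TFPI2, ANO1, LPAR6 and DIO3, and did not for NTM. TFPI2, a protease inhibitor gene, was 26.8 and 111 FPKM in WT, 98.4 and 282 in 1#, and 70.3 and 274 in 2#, and so differed more between replicates than between clones. Between replicate numbers, 7 of the 39 were higher and 6 lower, beside 12.5% and 15.5% of all genes. Each clone alone against WT gave 0 without the block, and with it TSPAN32 and TFPI2 were higher in 1#, and TSPAN32, TFPI2 and IGF2 in 2#. Of all 15895 genes, 364 were higher in 1# and 411 in 2# in that blocked fit. The median log2 change in MSX2-/- was -0.04 over the list and 0.01 over all genes.

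Genes that maintain imprints were measured by a list of 31, of which 22 were tested. Between the clones limma called 0, and 0 were at an unadjusted p under 0.05 with or without the block. TRIM28, the corepressor that ZFP57 recruits to methylated imprinting control regions, was 264 and 362 FPKM in WT, 347 and 415 in 1#, and 327 and 425 in 2#. It was the 1 gene of the 22 called in MSX2-/- against WT with the block (0.28 ± 0.06, adjusted p = 0.0389). The background in that fit was 6.11% of all genes higher and 3.74% lower. WT replicate 2 exceeded replicate 1 of both clones. ZFP57 itself was at 0.0254 FPKM or less, and ZNF445, which shares its role, was 4.74 to 7.41 FPKM. The maintenance methyltransferase DNMT1 was 38.7 to 51.8 FPKM, and the de novo enzyme DNMT3B was 29.8 and 37.2 FPKM in WT, 29.2 and 33.1 in 1#, and 30.1 and 35.4 in 2#. Replicate 2 was higher for 7 of the 22 (CTCF, DNMT3A, TRIM28, TDG, ZNF202, TET3 and UHRF1) and lower for 1 (KDM1B), beside 12.5% and 15.5% of all genes.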

How the data were processed

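RNA-seq of H1-derived cells was deposited as 1 table with a value per gene symbol in each of 6 libraries, unpooled. Values deposited by the authors are in FPKM, that is, fragments scaled by transcript length and by the mapped fragments of the library, and no read counts were used. The submitters' processing notes name hg19, BWA, Bowtie and RSEM, and the design text TopHat and Cufflinks; versions are not given in the sources used here. The kit does not mark strand, so overlapping genes on opposite strands share reads. The table held 58364 rows with values and 1 without, and 0 columns of samples were left unused.

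The genes and lists were chosen with earlier results of these data known. Values were tested as log2(FPKM + 1) with limma 3.58.1 in R 4.3.3 (empirical Bayes, mean-variance trend) on the 15895 genes that averaged 0.5 FPKM or more, with Benjamini-Hochberg adjustment over all of them and a threshold of 0.05. One fit of 3 groups compared the clones with WT and with each other, and another of 2 groups compared MSX2-/- with WT. The fit scripts were tested on simulated data with changes set in 2# against WT. Without the block, 0% of log2 changes of 1 and 10.1% of those of 2 were called, and with it 18.8% and 57.6%. A gene that was not called is therefore not shown to be unchanged. The replicate number was a block in the alternative fit: deviations of same-numbered libraries from their group means correlated across genes (r = 0.508 for WT and 1#, 0.540 for WT and 2#, 0.636 between clones; genes are not independent replicates), and the labels tie the numbers to set letters, so the numbers were taken to pair the libraries. Per-library values are printed for genes of the set list that met the on/off rule or were called in any comparison. They are also printed for the 6 genes with the largest difference between clones and for those of the 7 locus pairs. Of the called genes of the wider lists, only some have their values printed. ALB, FGB, AFP and COL1A1 were picked from their marker lists after their values were seen. Other settings were a pseudocount of 0.1, no filter, a filter of 1 FPKM, rescaled libraries, other groupings and leaving out each library. Overlaps came from GENCODE 29 (GRCh38), which held 54894 of the 56595 symbols of the table.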

Additional observations from a re-analysis of the deposited data

Results flagged for a closer look

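Among the 4 MSX2-/- libraries, 3 imprinted genes had 1 library apart from the others by Dixon's ratio of gap to range, which was 1.0 in each and above the 95% critical value. The ratio is 1.0 because the other 3 libraries were tied at 0. MEG8 was 0.246 FPKM in 1# replicate 2, MKRN3 was 0.0390 FPKM in 2# replicate 2, and PEG3 was 0.0056 FPKM in 1# replicate 2. Chance alone flags about 1 in 20 such groups, and a ratio from tied zeros says little at levels this low.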

How the results depend on the processing

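Without the replicate block, the counts of imprinted genes called in the clone and genotype comparisons were 0 in every setting run, including with each library left out. With the block, 2 were called in 2# against WT (3 with a pseudocount of 0.1, 2 with rescaled libraries, 0 without the filter, 0 to 2 with 1 library left out), 0 in 1# against WT (0 to 2 with 1 library left out), and 5 in MSX2-/- against WT (6 with a pseudocount of 0.1, 7 with rescaled libraries, 1 without the filter, 1 to 3 with 1 library left out). The block changed no other call among these genes; its effect on the wider lists of imprinted and imprint-maintaining genes stands beside their counts. Combinations of the block with a pseudocount, rescaling or left-out libraries were chosen after seeing the data. The 8 calls between replicate numbers became 5 with the replicate number alone, 0 without the filter (0 of 30029 genes in all) and 2 to 7 with 1 library left out; where a group is left with 1 library, that library is assumed to vary like the others. With a pseudocount of 0.1, 2 locus pairs separated the clones, CDKN1C over KCNQ1OT1 being the second, with KCNQ1OT1 at 0.0820 FPKM or less in every library. The H19 change in 2# against WT (0.18) ran from -0.42 to 0.79 with 1 library left out, and from -0.59 to 0.96 with the block, being below 0 without WT replicate 1 (-0.18, or -0.59 with the block) or 2# replicate 1 (-0.42, or -0.50). The cause was not tested.

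Over all genes, MSX2-/- against WT called 204 genes, 1566 with the block, 6 in a fit of 3 groups, 125 without the filter and 19 to 82 with 1 library left out. Each clone against WT called 1 gene, and 550 (1#) or 590 (2#) with the block. Between replicate numbers 4441 were called, 939 to 3692 with 1 library left out. Depth in reads is unknown, and genes near 0 FPKM cannot be ranked.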

Other observations

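Liver genes were among the 34 rows that were on in one clone and off in the other. ADH1A, APOC4, C9, CYP2A6, SAA1 and SAA4, picked from that list after it was seen, were 1.21 to 4.85 FPKM in 1# and 0.0671 FPKM or less in 2#. In WT they ranged from 0.0321 to 2.67 FPKM. SAA1, an acute-phase protein gene, stood at 3.77 and 4.85 FPKM in 1#, at 0 in both 2# libraries, and at 0.302 and 2.67 FPKM in WT.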
